A study of Mus musculus with 12 samples.

Results

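The Schlafen genes are a family of interferon-responsive genes that lie side by side on mouse chromosome 11. The family was followed here through 7 named genes, Slfn1, Slfn2, Slfn3, Slfn4, Slfn5, Slfn8 and Slfn9, in spleen CD8+ T cells given type I interferon, T cell receptor stimulation, or both. A gene was measured where a row of the array table was annotated to that gene symbol and no other. This gave 1 row each for 6 of the 7 genes, of 22180 genes measured in all. Slfn9 had no such row, because its row is annotated to Slfn9 and Slfn8 together. The members are Slfn1 (Entrez gene 20555), Slfn2 (20556), Slfn3 (20557), Slfn4 (20558), Slfn5 (327978) and Slfn8 (276950).

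All cells came from spleens of C57BL/6 mice, were purified with a CD8a+ T cell isolation kit, and were incubated for 6 h. The 4 groups of 3 arrays received phosphate-buffered saline (PBS) alone, IFN-4a added to PBS, an antibody against CD3 (anti-CD3), or that antibody together with IFN-4a. IFN-4a is the type I interferon of the series, and anti-CD3 engages the T cell receptor complex; the PBS groups are named resting below and the anti-CD3 groups stimulated. The labels give neither doses nor the animal behind a replicate number, so the arrays of a group may be technical repeats and p-values measure the spread between these arrays only.

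Schlafen proteins are known from immune cells, where type I interferon raises several of them. The short forms Slfn1 and Slfn2 have been tied to growth restraint and quiescence of T cells, and Slfn2 is needed for T cells to survive activation and to protect transfer RNAs from cleavage. Slfn3 and Slfn4 are intermediate forms, the latter known mainly from myeloid cells. Slfn5, Slfn8 and Slfn9 are long forms that carry a helicase-like region, and relatives of the long forms in humans cleave transfer RNA and restrict viruses. Because the genes are paralogs, array probes of one may capture RNA of another. The probe sequences were not used here, so every value below is that of a row and could include signal from a paralog.

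The values were read as log2, and the authors had set the median of every row across the arrays to 0. A value above 0 is therefore above the median of its own row, and levels of different genes cannot be compared. A change is the difference of 2 group means with its standard error (SE) from limma, and a gene is called changed at a Benjamini-Hochberg adjusted p under 0.05 over all 22180 genes. The comparisons share groups, so they are not independent of each other. Where quantile normalization is named below, it was run on the row-centred values. It makes the distribution of deviations from the row medians alike on all arrays, also between treatments, and is not a renormalization of intensities. A call lost or turned under it therefore does not decide between the scalings. RNA came from whole purified populations, in which fewer cells of a type and less RNA per cell cannot be told apart. The array medians lay between -0.0157 and 0.0165. The interferon gene Ifit1 rose by 5.16 with IFN-4a in resting cells and the receptor-response gene Nr4a1 by 3.44 with anti-CD3, in the direction of the labels. Decimal steps of the values place a row at 8 or above before centring. All 7 measured CD8 T cell markers, among them Cd8a, Cd8b1 and Cd3e, were that high on all 12 arrays. None of the markers of B cells (7), CD4 T cells (4), monocytes, macrophages and dendritic cells (11), granulocytes (7), or erythroid cells and platelets (3) was, even on their 6 highest arrays. Of 8 NK cell markers, several of which effector CD8+ T cells also express, Klrd1 and Nkg7 were on all arrays. The mean of these 8, which was not tested and is set largely by Gzma, was higher with IFN-4a, from between -0.27 and -0.19 on the PBS arrays to between -0.01 and 0.20 with IFN-4a, and from between -0.08 and 0.01 with anti-CD3 to between 0.20 and 0.35 with both. Gzma, a granule protease gene, was called higher in both states, by 2.28 and 1.95, while the median changes of the 8 were 0.11 and 0.05. Eomes at 0.46 and Nkg7 at 0.24 were also called higher in stimulated cells. Klrd1 was called lower, at -0.30 and -0.32, and under quantile normalization stood at -0.30 and -0.86 without a call. The part of these cells in the Schlafen values was not tested.

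**Figure D1:**
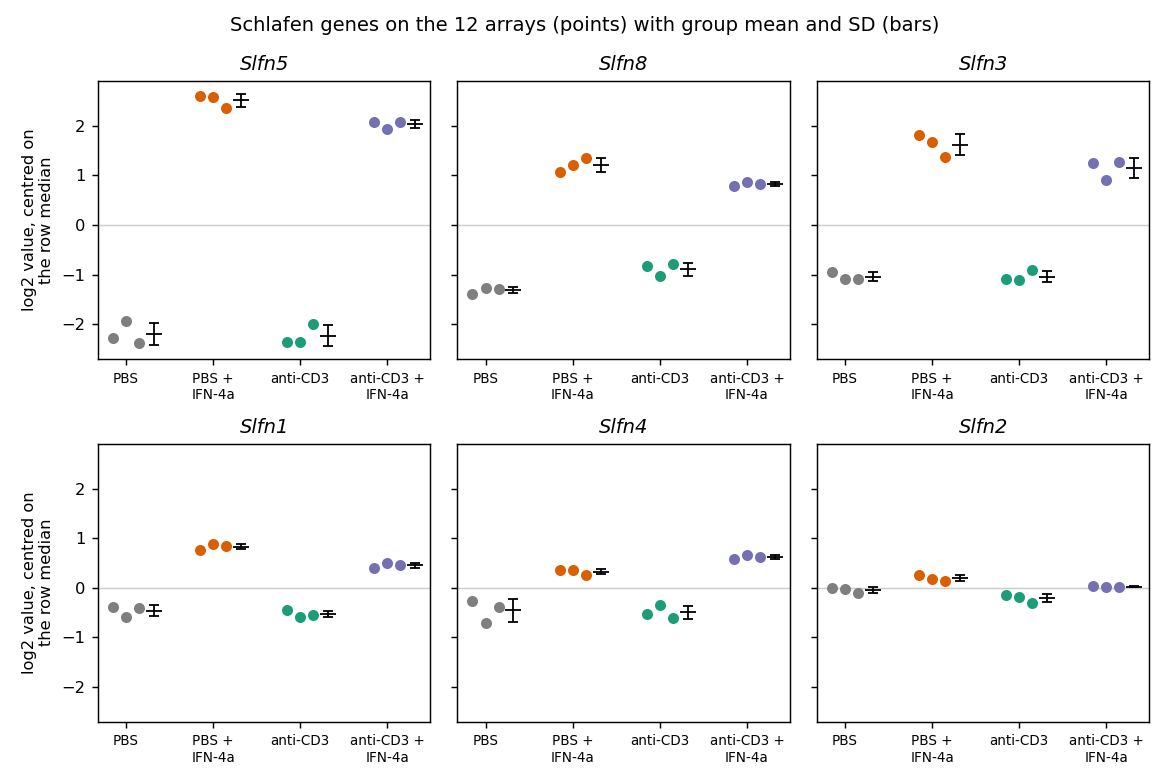
Log2 values of the 6 measured Schlafen genes on each of the 12 arrays, centred on the row median; points are arrays and bars give the group mean with its SD (n = 3). Slfn5 spans from -2.37 to 2.61, and in every panel both groups with IFN-4a lie above both groups without it.

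The first question was how IFN-4a changes these genes in resting cells. All 6 measured members rose, while 4.25% of all genes were called higher and 8.37% lower. The increase ran from 0.24 for Slfn2 to 4.71 for Slfn5, with a median of 1.91 against -0.01 over all genes. The members also had no overlap between the 3 arrays with IFN-4a and the 3 PBS arrays, which 12.1% of all genes showed in that direction. In stimulated cells all 6 rose again, against 2.02% of all genes called higher and 1.46% lower, by 0.23 to 4.27 with a median of 1.41. There 9.02% of all genes were higher without overlap.

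Slfn5, a long form with a nuclear location, responded most. On the PBS arrays it stood at -2.27, -1.94 and -2.37, and on the arrays of PBS with IFN-4a at 2.61, 2.57 and 2.36. On the anti-CD3 arrays it stood at -2.36, -2.36 and -1.99, and on those of anti-CD3 with IFN-4a at 2.08, 1.94 and 2.08. The arrays thus fell into a high and a low set by IFN-4a, with a wide gap and no overlap in either cell state. The increase was 26.2-fold in resting cells (log2 4.71, SE 0.12, adjusted p = 3.46e-12) and 19.3-fold in stimulated cells (log2 4.27, SE 0.12, adjusted p = 2.09e-11). By size of change Slfn5 was number 7 of all 22180 genes in resting cells and number 3 in stimulated cells. Under quantile normalization of the arrays the resting change was 3.92, still called.

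Slfn3 followed. It stood at -0.94, -1.10 and -1.08 with PBS and at 1.81, 1.68 and 1.38 with PBS and IFN-4a. Its values were -1.10, -1.11 and -0.91 with anti-CD3 and 1.26, 0.91 and 1.26 with anti-CD3 and IFN-4a. Both groups without IFN-4a shared the same range and both groups with it lay far above. Slfn3 rose 6.33-fold in resting cells (log2 2.66, SE 0.11, adjusted p = 1.19e-09) and 4.55-fold in stimulated cells (log2 2.18, SE 0.11, adjusted p = 1.90e-08).

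Slfn8, the other long form with a row of its own, rose nearly as much in resting cells. Its values were -1.38, -1.27 and -1.28 with PBS, and 1.07, 1.21 and 1.35 with PBS and IFN-4a. They were -0.84, -1.04 and -0.79 with anti-CD3, and 0.79, 0.86 and 0.83 with anti-CD3 and IFN-4a. The row was spread over 4 separate levels, with no overlap between any pair of groups, as was that of Slfn2 on a much smaller scale. The increase with IFN-4a was 5.75-fold in resting cells (log2 2.52, SE 0.08, adjusted p = 3.20e-11) and 3.29-fold in stimulated cells (log2 1.72, SE 0.08, adjusted p = 4.34e-09).

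The promoters of these responders are shown because the members rise together with an interferon, whose factors bind a response element. Each window covers 250 bases before and 50 bases after a start site in RefSeq on GRCm38.p6, printed in the gene's own direction. Capitals mark matches on either strand to the core of the interferon-stimulated response element, searched as GAAA, any 2 bases and GAAA again. Slfn9 is included because its only row is shared with Slfn8, and Slfn3 because it rose without a match.

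Slfn5 promoter, chr11:82951852-82952151, plus strand: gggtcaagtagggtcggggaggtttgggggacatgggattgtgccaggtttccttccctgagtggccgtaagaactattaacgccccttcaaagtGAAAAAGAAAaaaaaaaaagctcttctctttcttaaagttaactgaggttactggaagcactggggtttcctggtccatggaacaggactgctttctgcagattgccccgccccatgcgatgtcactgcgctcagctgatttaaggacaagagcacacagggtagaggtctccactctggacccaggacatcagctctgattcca
Slfn8 promoter, chr11:83020761-83021060, minus strand: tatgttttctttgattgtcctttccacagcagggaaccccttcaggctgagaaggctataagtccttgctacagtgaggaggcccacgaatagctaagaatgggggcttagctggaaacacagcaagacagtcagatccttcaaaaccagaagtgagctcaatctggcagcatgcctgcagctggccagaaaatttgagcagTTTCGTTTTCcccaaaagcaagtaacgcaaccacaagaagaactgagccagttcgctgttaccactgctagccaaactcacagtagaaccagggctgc
Slfn9 promoter, chr11:82991781-82992080, minus strand: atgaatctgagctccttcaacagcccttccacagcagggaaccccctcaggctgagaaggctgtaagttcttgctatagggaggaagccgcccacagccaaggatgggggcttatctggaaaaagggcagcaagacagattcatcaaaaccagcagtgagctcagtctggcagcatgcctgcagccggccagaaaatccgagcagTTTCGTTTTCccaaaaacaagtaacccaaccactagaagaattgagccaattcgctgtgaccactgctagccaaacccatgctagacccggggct
Slfn3 promoter, chr11:83191080-83191379, plus strand: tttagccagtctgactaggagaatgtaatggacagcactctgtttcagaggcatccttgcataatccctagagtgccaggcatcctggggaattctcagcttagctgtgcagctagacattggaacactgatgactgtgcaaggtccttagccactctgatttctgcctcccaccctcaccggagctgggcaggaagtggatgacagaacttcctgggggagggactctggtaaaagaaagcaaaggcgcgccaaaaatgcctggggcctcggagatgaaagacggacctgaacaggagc

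Of the 7 members, Slfn5, Slfn8 and Slfn9 held 1 match in each window, and Slfn1, Slfn2, Slfn3 and Slfn4 held none. Among all 32851 windows of that length, 3.4% held a match. The match began 155 bases before the start site in Slfn5, 48 in Slfn8 and 45 in Slfn9. The window of another annotated start site of Slfn8 held a match 136 bases before that start. The Slfn8 and Slfn9 windows were 80.5% identical over their alignment, whereas every other pair of members was 41.9% to 49.4% identical. The motif TTCNNNGAA, a gamma-activated site, was in none of the members' windows and in 8.3% of all windows. GGAAA, the core bound by NFAT factors of T cell activation, was in the windows of Slfn2, Slfn5, Slfn8 and Slfn9 and in 61.3% of all. In Slfn8 and Slfn9 one of its matches overlapped the interferon motif. TGANTCA, the AP-1 site, was found in Slfn4 alone, beginning 34 bases before the start, and in 7.8% of all windows. These matches describe letters in a window and show no binding.

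**Figure D2:**
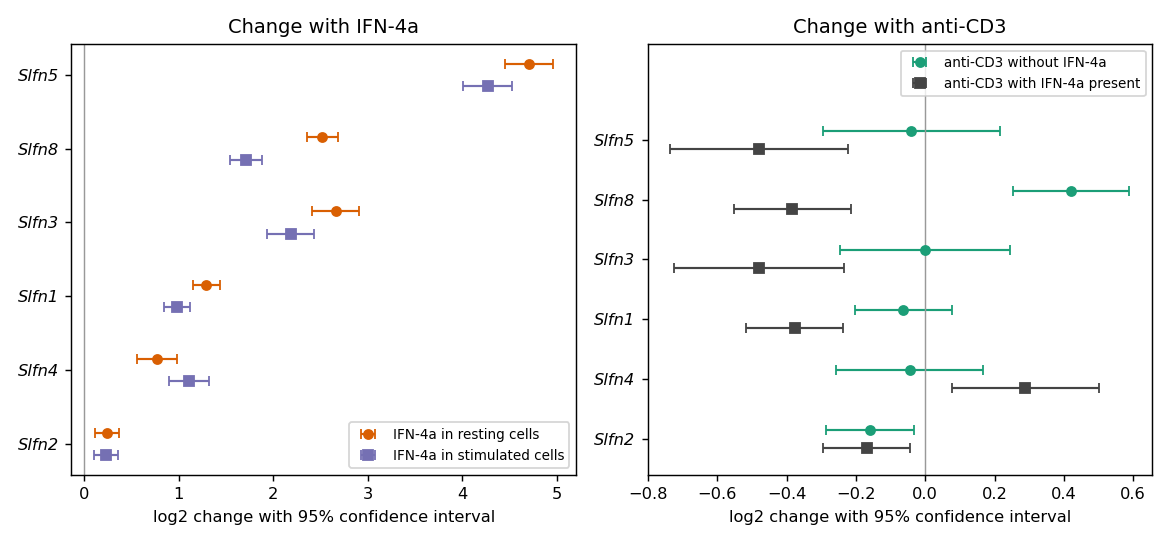
Log2 changes of the 6 measured Schlafen genes with 95% confidence intervals, left for IFN-4a in resting and stimulated cells and right for anti-CD3 without and with IFN-4a. Slfn5 and Slfn2 mark the ends of the IFN-4a response at 4.71 and 0.24 in resting cells, and every change in the right panel lies between -0.48 and 0.42.

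The short forms and Slfn4 rose less than these 3 genes. Slfn1, a short form linked to growth arrest of T cells, stood at -0.40, -0.59 and -0.41 with PBS and at 0.77, 0.88 and 0.85 with PBS and IFN-4a. It stood at -0.45, -0.59 and -0.54 with anti-CD3 and at 0.40, 0.50 and 0.46 with anti-CD3 and IFN-4a. The arrays of each group were tight, and those with IFN-4a were clear of those without. Slfn1 rose 2.45-fold in resting cells (log2 1.29, SE 0.06, adjusted p = 6.11e-09) and 1.97-fold in stimulated cells (log2 0.98, SE 0.06, adjusted p = 2.46e-07).

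Slfn4 was the member with its highest values in stimulated cells. It stood at -0.26, -0.71 and -0.39 with PBS and at 0.35, 0.36 and 0.26 with PBS and IFN-4a. With anti-CD3 it stood at -0.53, -0.35 and -0.61, and with anti-CD3 and IFN-4a at 0.57, 0.65 and 0.61. The second PBS array was the lowest of its group by a clear margin, and still no group without IFN-4a reached a group with it. Slfn4 rose 1.71-fold in resting cells (log2 0.78, SE 0.10, adjusted p = 0.000141) and 2.16-fold in stimulated cells (log2 1.11, SE 0.10, adjusted p = 5.61e-06). Its row was the one of the 6 whose decimal steps do not place all of its 6 highest arrays at 8 or above. No monocyte, macrophage or dendritic cell marker was called higher with IFN-4a in either state, against 4.25% and 2.02% of all genes. In resting cells 2 of 11 were lower, against 8.37% of all genes, Fcgr3 at -0.28 and Ccr2 at -0.24. With quantile normalization they stood at -0.25 and -0.21 without a call. None of the 11 was at 8 or above before centring, even on its 6 highest arrays. The part of such cells in the Slfn4 values was not tested.

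Slfn2, the short form needed for T cell quiescence, changed least. It stood at -0.01, -0.03 and -0.12 with PBS and at 0.26, 0.18 and 0.13 with PBS and IFN-4a. With anti-CD3 it stood at -0.14, -0.19 and -0.31, and with anti-CD3 and IFN-4a at 0.03, 0.02 and 0.01. The groups with and without IFN-4a still did not overlap in either state, but the gaps were small. Slfn2 rose 1.18-fold in resting cells (log2 0.24, SE 0.06, adjusted p = 0.0152) and 1.18-fold in stimulated cells (log2 0.23, SE 0.06, adjusted p = 0.0461). The resting call was lost without the third PBS array (adjusted p = 0.0648) or without the first array of PBS with IFN-4a (adjusted p = 0.0699). The stimulated call was lost when any of 9 of the 12 arrays was left out: the first or second PBS array, the first or second array of PBS with IFN-4a, the second anti-CD3 array, the third anti-CD3 array, or any array of anti-CD3 with IFN-4a. The highest of these adjusted p-values was 0.189, without the third anti-CD3 array. The call was also lost with array medians subtracted (adjusted p = 0.0548) and with the remaining groups left out of the model (adjusted p = 0.0985). Its row lay at 8 or above before centring on all 12 arrays, as did those of Slfn1 and Slfn8.

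The next question was what anti-CD3 does to the family without added interferon. Only Slfn8 was called, and it rose 1.34-fold (log2 0.42, SE 0.08, adjusted p = 0.000676), but under quantile normalization the change turned to -0.24 (adjusted p = 0.0148). It kept its size with only the array medians removed, at 0.44. The background was high, with 31.8% of all genes called, 13.8% as higher and 18.0% as lower. Slfn8 had no overlap between its groups, as had 16.7% of all genes in the higher direction. Slfn2 stood at -0.16 (95% interval -0.29 to -0.03, adjusted p = 0.0526), with no overlap between the 2 groups, as had 24.5% of all genes in the lower direction. With the third PBS array left out its adjusted p was 0.0401, and with the first of the anti-CD3 arrays left out 0.0400.

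The other 4 members lay close to 0. Their changes were -0.06 for Slfn1 (95% interval -0.20 to 0.08), -0.0012 for Slfn3 (-0.25 to 0.24), -0.05 for Slfn4 (-0.26 to 0.17) and -0.04 for Slfn5 (-0.30 to 0.22). In all 4 the arrays of both groups overlapped. Decimal steps did not place the rows of Slfn3, Slfn4 and Slfn5 at 8 or above before centring on all 12 arrays. For Slfn3 and Slfn5 they did so on the 6 highest arrays, which are those with IFN-4a. The part of low signal in these changes was not tested. Under quantile normalization Slfn1 at -0.31, Slfn3 at -0.53 and Slfn5 at -1.04 passed the threshold as lower and Slfn4 stood at -0.27 without a call. With Slfn8 also lower, this scaling brought the members called from 1 to 4. Of all 22180 genes it called 6476, 3179 as higher and 3297 as lower.

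Beside the family stands the list of 24 other measured antiviral genes raised by interferon. Of these, 16 rose and 2 fell with anti-CD3 alone, against 13.8% and 18.0% of all genes, with a median of 0.59; under quantile normalization 7 rose and 13 fell, with a median of -0.28. The largest in the first scaling were Oasl2 at 2.21, of the oligoadenylate synthetase family, Zbp1 at 1.71, a nucleic acid sensor, Rtp4 at 1.69 and Bst2 at 1.41, the tetherin gene. With IFN-4a, 23 of the 24 rose in resting cells (median 3.69), against 4.25% of all genes, and 23 in stimulated cells (median 2.80), against 2.02%; the counts were equal under quantile normalization. Oasl2 at 5.19 and Ifit1 at 5.16 led in resting cells and Mx2 at 4.40 and Mx1 at 4.15, genes of antiviral GTPases, in stimulated cells. No test of the difference between this list and the Schlafen genes was made.

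**Figure D3:**
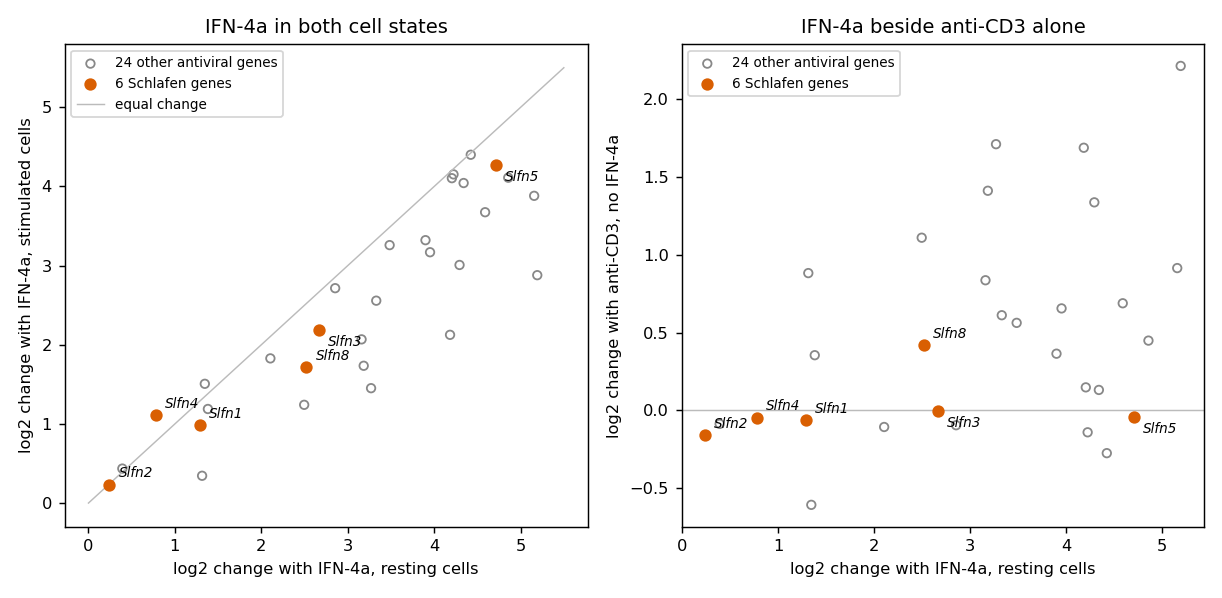
Log2 changes of the 6 Schlafen genes (filled) and the 24 other antiviral genes (open), with the IFN-4a change in resting cells on the horizontal axis against the IFN-4a change in stimulated cells (left, with the line of equal change) and the change with anti-CD3 alone (right). Slfn4 lies above the line of equal change on the left, and Slfn8 at 0.42 is the highest Schlafen gene on the right.

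With IFN-4a present in both groups, anti-CD3 gave calls for all 6 members as deposited, and for 4 under quantile normalization. That scaling called 6065 of all 22180 genes. As deposited, Slfn1, Slfn2, Slfn3, Slfn5 and Slfn8 fell and Slfn4 rose, while 27.7% of all genes were called, 14.9% as lower and 12.8% as higher. Slfn3 fell by 0.48 (SE 0.11, adjusted p = 0.00501) and Slfn5 by 0.48 (SE 0.12, adjusted p = 0.00655). Slfn8 fell by 0.38 (SE 0.08, adjusted p = 0.00157) and Slfn1 by 0.38 (SE 0.06, adjusted p = 0.000385). These 4 calls were kept under every alternative run, and under quantile normalization Slfn5 fell further, to -0.85. In each of them all 3 arrays of PBS with IFN-4a lay above all 3 arrays of anti-CD3 with IFN-4a. Over all genes 22.4% were lower without overlap and 15.9% higher. Of the 24 other antiviral genes 9 were called lower in this comparison and 0 higher, with a median of -0.16. With quantile normalization 18 of them were called lower and 0 higher.

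The remaining pair was less firm. Slfn4 rose by 0.29 (SE 0.10, adjusted p = 0.0418), a call lost when any array of PBS with IFN-4a, any array of anti-CD3 with IFN-4a or the first anti-CD3 array was left out (highest adjusted p 0.128). It was also lost under quantile normalization (log2 0.15, adjusted p = 0.402) and with the replicate number as a block (log2 0.29, adjusted p = 0.0579). Slfn2 fell by 0.17 (SE 0.06, adjusted p = 0.0458). That call was lost without any of 8 arrays, namely the first or second PBS array, the first or second array of PBS with IFN-4a, the second anti-CD3 array, or any array of anti-CD3 with IFN-4a (highest adjusted p 0.173). It was also lost under quantile normalization (log2 -0.16, adjusted p = 0.0875), with array medians subtracted (log2 -0.15, adjusted p = 0.0801) and with the remaining groups left out of the model (adjusted p = 0.0547).

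The interaction asks whether IFN-4a acts by the same amount in both cell states. It subtracts the IFN-4a change of resting cells from that of stimulated cells, and 0.942% of all genes were called, 0.645% as lower. Slfn8 alone among the members passed, at -0.81 (SE 0.11, adjusted p = 0.00170), and under quantile normalization it did not (log2 -0.30, adjusted p = 0.277). Without quantile normalization its call was kept under every alternative run, including the omission of each array in turn. The log2 change of Slfn8 in stimulated cells was 68.1% of that in resting cells. Of the 24 other antiviral genes 14 were called lower in the interaction and 0 higher, with a median of -0.76. With quantile normalization 6 of them were called lower, and the median was -0.05. Slfn1 stood at -0.31 (95% interval -0.51 to -0.12, adjusted p = 0.173), Slfn3 at -0.48 (-0.83 to -0.13, adjusted p = 0.264) and Slfn5 at -0.44 (-0.80 to -0.08, adjusted p = 0.338). Slfn4 pointed the other way at 0.33 (0.03 to 0.63, adjusted p = 0.388) and Slfn2 stood at -0.01 (-0.19 to 0.17, adjusted p = 0.985). Under quantile normalization Slfn5 turned to 0.19, Slfn2 to 0.020, and Slfn3 shrank to -0.092. None of these 5 passed over all genes, and Slfn1 did when only rows at 8 or above before centring were tested (adjusted p = 0.0497).

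Cells given both treatments were also set against untreated cells. Of the members 5 rose, against 14.1% of all genes: Slfn5 by 4.23, Slfn3 by 2.18, Slfn8 by 2.14, Slfn4 by 1.06 and Slfn1 by 0.92. Slfn2 stood at 0.07 (95% interval -0.05 to 0.20, adjusted p = 0.409). Anti-CD3 alone gave lower values than IFN-4a alone in all 6 members, against 16.5% of all genes, from -0.40 for Slfn2 to -4.75 for Slfn5.

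On the values as deposited the groups could so be put in order for each gene. Slfn5, Slfn3 and Slfn1 were highest with IFN-4a alone, then with both treatments, and then in PBS and anti-CD3, which did not differ beyond their spread; under quantile normalization anti-CD3 was called below PBS in all 3 genes. Slfn8 had the same order with anti-CD3 above PBS, and with anti-CD3 below PBS under quantile normalization. Slfn4 was highest with both treatments, then with IFN-4a alone, then in PBS and anti-CD3 without a called difference; the call between its upper groups was lost under quantile normalization, under the block and without any of 7 arrays, as given above. Slfn2 was highest with IFN-4a alone, and its next neighbours, both treatments and PBS, and then PBS and anti-CD3, did not differ beyond the threshold. The call that set IFN-4a alone above both treatments was lost under quantile normalization and without any of 8 arrays, among other alternatives given above.

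Across the 12 arrays the 6 rows moved alike. The Pearson correlation between members ran from 0.69, for Slfn2 with Slfn4, to 0.99, for Slfn3 with Slfn5. The 12 arrays form 4 groups, so these values carry the group differences and are given as a description. Outside the family, the 3 genes most like Slfn5 were Herc6 (r = 0.999), Helz2 (0.998) and Daxx (0.997). Slfn8 was most like Oas1b (0.997), Adar (0.996) and Uba7 (0.995), and Slfn3 most like Ifi213 (0.997), Ifi214 (0.994) and Phf11 (0.994). For Slfn1 these were Samd9l (0.996), 1600014C10Rik (0.994) and Agrn (0.991).

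The closest genes of Slfn4 and Slfn2 were a little further away. All these genes were picked by likeness over the same arrays, so a pattern shared with the member follows from the choice. Slfn4 was most like Tuba8 (0.980), Phf11d (0.970) and Isg15 (0.962). The IFN-4a change of Tuba8, a tubulin gene, was 1.39 in stimulated and 0.95 in resting cells. That of Phf11d was 1.21 and 1.02, and that of Isg15 was 3.26 and 3.48. Oas1b, the gene most like Slfn8, changed by 2.48 with IFN-4a in resting and 1.61 in stimulated cells. It changed by 0.46 with anti-CD3 alone. Slfn2 was most like Tmem229b-ps (0.962), Vwa3b (0.957) and Treml1 (0.953), whose IFN-4a changes in resting cells were 0.37, 0.45 and 0.19.

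The response was also read along the gene cluster. In RefSeq order the measured genes of the cluster were Slfn5, Slfn8, Slfn10-ps, Slfn2, Gm20234, Slfn1, Slfn4, Slfn3, AI662270 and Slfn14. Gm20234 stood at 0.22 with IFN-4a in resting cells and rose by 0.44 in stimulated cells (adjusted p = 0.0177). AI662270 rose by 0.33 in resting cells (adjusted p = 0.00294) and stood at 0.19 in stimulated cells. Slfn10-ps, an annotated pseudogene inside the cluster, rose with IFN-4a by 0.51 in resting cells (adjusted p = 0.00419) and by 0.67 in stimulated cells (adjusted p = 0.00117). It fell with anti-CD3, by 0.52 without and by 0.36 with IFN-4a. Slfn14, at the far end of the cluster, stood at -0.04 and 0.06 with IFN-4a, and Slfnl1, a related gene on another chromosome, at 0.12 and -0.04, none of them past the threshold. Of the 8 nearest measured protein-coding neighbours, 4 on each side, none was called higher with IFN-4a in either state. Nle1, a ribosome assembly gene, fell by 0.25 in resting cells (adjusted p = 0.0411) and rose by 1.35 with anti-CD3 alone; the fall was not called under quantile normalization (adjusted p = 0.0783).

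**Figure D4:**
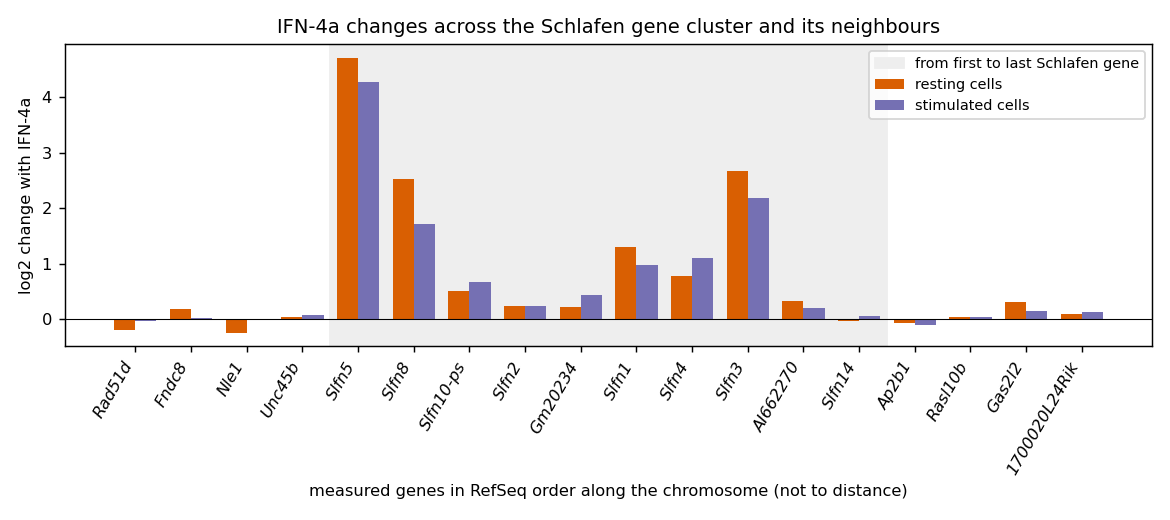
Log2 changes with IFN-4a in resting and stimulated cells for the measured genes from 4 neighbours before to 4 neighbours after the Schlafen cluster (shaded), in RefSeq gene order and not to distance. The bars of Slfn5, Slfn8 and Slfn3 stand out inside the shaded stretch, and no neighbour exceeds 0.31.

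The signalling genes upstream were read as a list of 13 measured genes from the interferon receptor to its transcription factors and their feedback. With IFN-4a, 8 of the 13 rose in resting cells, against 4.25% of all genes, and 4 in stimulated cells, against 2.02%, and none fell; the medians were 0.36 and 0.07. In resting cells Usp18, which encodes a brake on the receptor, rose by 4.76, Irf7 by 3.43, and Stat2 and Irf9, which form the DNA-binding complex of type I interferon, by 2.20 and 1.76. In stimulated cells the same 4 genes rose by 3.47, 2.32, 1.53 and 0.66. Anti-CD3 alone raised 7 of the 13 and lowered 4, against 13.8% and 18.0% of all genes. Those raised included Usp18 by 1.14, Irf7 by 0.89 and Stat2 by 0.59. In the interaction 6 of the 13 were called lower, against 0.645% of all genes. With quantile normalization anti-CD3 alone raised 4 and lowered 4, and the interaction called 3 lower. Usp18, Irf7 and Stat2 lost both calls there. With IFN-4a present, 7 of the 13 fell with anti-CD3, against 14.9% of all genes, among them the receptor gene Ifnar1 by 0.62 and the kinase genes Jak1 by 0.46 and Tyk2 by 0.39, and 2 rose, against 12.8%.

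Quiescence is the setting in which Slfn2 is known. With anti-CD3 alone 13 of 16 measured quiescence genes fell and 2 rose, against 18.0% and 13.8% of all genes, with S1pr1, the receptor for exit from lymphoid organs, at -1.28, Cdkn1b, a cell cycle inhibitor gene, at -1.17 and Tob1 at -1.09. With IFN-4a in resting cells 4 of 16 fell, against 8.37% of all genes, among them Klf2 at -0.37, and in stimulated cells none was called. The call of Runx1, one of the 4, was lost under quantile normalization (log2 -0.18, adjusted p = 0.0966). Of 14 genes of G1 and growth, 5 rose and 6 fell with anti-CD3 alone, against 13.8% and 18.0% of all genes, led by Myc at 2.75 and Cdkn1a at 2.71. Of these 14, 2 rose and 2 fell with IFN-4a in resting cells, against 4.25% and 8.37% of all genes, with Ccnd2, the cyclin D2 gene, at 1.47. In stimulated cells 1 rose and 1 fell, against 2.02% and 1.46%. Under quantile normalization the resting call of Cdk4 (log2 -0.15, adjusted p = 0.0858) was lost. So were the calls of Cdkn1a in resting cells, where 0.26 became -0.0029 (adjusted p = 0.987), and in stimulated cells, where 0.28 became 0.072 (adjusted p = 0.669). Other genes of the 14 gained calls in that scaling. It gave 2 higher and 1 lower in resting cells, against 799 and 1263 of all 22180 genes. In stimulated cells it gave 3 higher and 1 lower, against 478 and 479.

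Genes that cut, trim or modify transfer RNA were the last list. With anti-CD3 alone 7 of 10 measured genes rose and 2 fell, against 13.8% and 18.0% of all genes, led by the methyltransferase genes Trmt61a at 2.42 and Nsun2 at 1.37 and by Elac2, which encodes a nuclease that trims transfer RNA ends, at 1.58. With IFN-4a none of the 10 rose in either state, and 3 fell in resting cells, against 8.37% of all genes, Nsun2 at -0.27, Rnh1, the ribonuclease inhibitor gene, at -0.21 and Trmt6 at -0.19. Under quantile normalization the calls of Rnh1 (log2 -0.18, adjusted p = 0.0915) and Trmt6 (log2 -0.13, adjusted p = 0.108) were lost, as was the fall of Elac1 with anti-CD3 alone (log2 -0.22, adjusted p = 0.0504).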

How the data were processed

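RNA of 12 samples of mouse CD8+ T cells, 3 in each of 4 groups, was labelled with an Affymetrix whole-transcript kit and hybridised to arrays, per the labels' protocols. The deposited log2 values of 33793 rows are the authors' own. Each row's median over the arrays is 0, which was tested on the values; how background was corrected, how arrays were normalized and which log base was taken was not given in the sources used here. Decimal steps place many rows at 8 or above before centring, which a base of 10 could not give on a 16-bit scanner, whereas a natural log is not excluded; every fold assumes base 2.

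The 23521 rows annotated to 1 symbol gave 22180 genes, as means over rows; 1814 rows with several symbols and 8458 with none were left out. Group means were fitted with limma 3.58.1 in R 4.3.3 over all 12 arrays, with empirical Bayes variances, Benjamini-Hochberg adjustment and a threshold of 0.05, for 7 comparisons. The fit was tested on simulated data. Motifs were searched in RefSeq promoter windows of 300 bases on GRCm38.p6.

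The members and gene lists were chosen with earlier results of these data known. Named genes were all members, up to 4 genes a list by size of change in a comparison, the check genes of either treatment, the 4 nearest measured neighbours on each side of the cluster, and the 3 other genes most correlated with each member. Gm20234, AI662270, Runx1, Cdk4 and Elac1 lie outside that rule and were named after their values were seen. Alternatives were quantile normalization, array weights, a replicate block, fewer groups or rows, other ways to summarise a gene, omission of each array in turn and, chosen after seeing the data, subtraction of array medians. The quantile normalization was applied to the row-centred values, and so equalised deviations from row medians rather than intensities.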

Additional observations from a re-analysis of the deposited data

Results flagged for a closer look

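The IFN-4a change of Slfn8 differed between the cell states, by -0.81 from resting to stimulated cells (limma adjusted p = 0.00170), with the exception of the quantile-normalized values, where the difference was not called. It was not particular to Slfn8, as 14 of the 24 other antiviral genes were also called lower in the interaction. On the quantile-normalized values 6 of the 24 were.

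A pair of array rows carries the symbols of 2 genes each and so entered no comparison. The row of Slfn9 and Slfn8 stood at -0.97, -0.42 and -0.65 with PBS and at 0.84, 0.82 and 0.42 with PBS and IFN-4a. It stood at -1.18, -1.07 and -0.61 with anti-CD3 and at 0.70, 0.83 and 0.81 with anti-CD3 and IFN-4a. The mean with IFN-4a was higher by 1.37 in resting cells and by 1.74 in stimulated cells, so the larger difference lay in stimulated cells, whereas the row of Slfn8 alone had its larger one in resting cells. These rows were not tested, and their signal cannot be assigned to either gene.

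The row of Slfn5os, an antisense gene, and Slfn5 stood at -0.16, -0.51 and -0.59 with PBS and at 0.77, 0.87 and 0.64 with PBS and IFN-4a. It stood at -0.18, -0.21 and -0.58 with anti-CD3 and at 0.48, 0.16 and 0.42 with anti-CD3 and IFN-4a. Its mean with IFN-4a was higher by 1.18 in resting cells and by 0.68 in stimulated cells, and in neither state did the arrays with and without IFN-4a overlap.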

How the results depend on the processing

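The IFN-4a calls of Slfn1, Slfn3, Slfn4, Slfn5 and Slfn8 were kept in both cell states under every alternative that gave a value; Slfn4 has none where only rows at 8 or above before centring on 6 arrays were tested. Under quantile normalization, the members called with anti-CD3 alone numbered 4, with Slfn8 turned to -0.24, while 6476 of all 22180 genes were called, against 7048. In that scaling the interaction called 127 genes, against 209, and 0 members, with Slfn2 at 0.020 and Slfn5 at 0.19. Array weights gave 1402 genes for IFN-4a in stimulated cells, against 771, and put Slfn4 at 0.017 with anti-CD3 alone. Subtracting array medians put Slfn3 there at 0.017. With rows at 8 or above only, 6743 genes were tested, without Slfn4. Of these, anti-CD3 alone called 4961 genes and 2 members, and the interaction 396 genes and 2 members. The main fit called 7048 and 209 of 22180 genes, so the counts come from unlike sets.

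Same-numbered samples did not deviate together in every pair (correlations from -0.079 to 0.266). Their mean correlation was 0.084, against -0.042 for arrays of different groups and numbers, and 9 of 12 arrays correlated best with an array of their own number. These values do not decide whether the numbers pair the samples, and the main fit had no block. With the replicate number as a block, 2 members were called with anti-CD3 alone, Slfn2 now among them (adjusted p = 0.0331), and Slfn4 lost its call for anti-CD3 with IFN-4a present (adjusted p = 0.0579). The block changed no other call of a member.

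With each array left out in turn, IFN-4a called 1753 to 2976 genes in resting cells, lowest without the second array of PBS with IFN-4a, and 489 to 763 in stimulated cells. Those lowest counts were 489 without the second anti-CD3 array and 498 without the third array of anti-CD3 with IFN-4a. The interaction called 137 to 207, lowest without the second array of PBS with IFN-4a. With anti-CD3 alone 1 to 2 members were called, and Slfn3 ranged from -0.065 to 0.050, Slfn4 from -0.17 to 0.050 and Slfn5 from -0.16 to 0.087. The interaction of Slfn2 ranged from -0.057 to 0.025. The cause of these shifts was not tested. With 3 arrays a group, changes as small as that of Slfn2 lie at the limit of what is called.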
